A study of Mus musculus with 6 samples.

Results

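The genes of the urea cycle and of amino acid catabolism are the subject here, 39 genes listed by symbol and grouped by the pathway their enzymes serve. Of these, 36 had a probe set paired with that gene alone on the array, and all 36 passed the filter on dim probe sets, among 8554 genes tested in all. The other 3, Gls2, Sds and Amt, have no expression value here. Each gene was read from its brightest such probe set. Ass1 also lies on a probe set that it shares with another gene symbol, which was not used, so its values come from a dim probe set alone.

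The livers came from C57BL/6 mice 18 hours after surgical removal of most of the liver (partial hepatectomy). Cre plus mice were Socs3 fl/fl and carried Cre recombinase under the albumin promoter (Alb-Cre+), which excises Socs3 in hepatocytes, while Cre minus mice were their Socs3 fl/fl, Alb-Cre- littermates. Total RNA of whole liver was hybridised to Affymetrix mouse whole-genome arrays, 3 per group, lettered A, B and C in each group. The labels give no age and do not say that each array is a separate mouse, so p-values here reflect variation among the 6 arrays only, some of which may be technical. No array predates surgery and no group carries Cre without floxed Socs3, so neither a difference present before surgery nor an effect of Cre can be told apart from the rest.

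Hepatocytes take up most of the amino acids that reach the body after a meal and break down those not needed for protein. The nitrogen released becomes ammonia, which periportal hepatocytes near the portal vein convert to urea and which a thin layer of pericentral hepatocytes around the central vein captures as glutamine. The carbon skeletons enter glucose production or the citric acid cycle. After partial hepatectomy the remnant liver carries this work while its hepatocytes enter the cell cycle. Socs3 is a feedback inhibitor of IL-6 family cytokine signalling through STAT3.

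As a check of the labels, all 3 Socs3 probe sets were lower in every Cre plus array than in any Cre minus array, and the brightest stood at 24.9% of the Cre minus signal. Arrays correlated at 0.995 within Cre minus and at 0.987 to 0.990 within Cre plus over all genes tested. Cre plus B lay closer to the Cre minus arrays (0.991 to 0.993) than to its own group.

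Most genes of amino acid breakdown had lower values in Cre plus livers, and none passed the test over all genes. Of 36 genes, 31 (86.1%) had a lower mean in Cre plus, where 53.5% of all genes tested did. The median log2 fold change (Cre plus minus Cre minus) was -0.26, beside -0.01 over all genes tested. With limma's test and Benjamini-Hochberg adjustment over all genes, 0 of the 36 passed an adjusted p under 0.05 in either direction, and over all genes 0.00% passed as lower and 0.0234% as higher. At an unadjusted p under 0.05, 14 of the 36 were lower, against 8.21% of all genes tested, and 0 were higher, against 6.62%. The 36 were also brighter, with a median log2 level of 10.8 against 7.30 over all genes tested. Shares among genes of matched level were not taken. In 15 of the 36 every Cre plus value lay below every Cre minus value, against 11.9% of all genes, and in 0 every Cre plus value lay above, against 9.21%. The count of 14 became 9 without Cre minus A, where the share over all genes went to 4.52%. Less RNA per hepatocyte and fewer hepatocytes in the tissue cannot be told apart in RNA of whole liver.

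**Figure D1:**
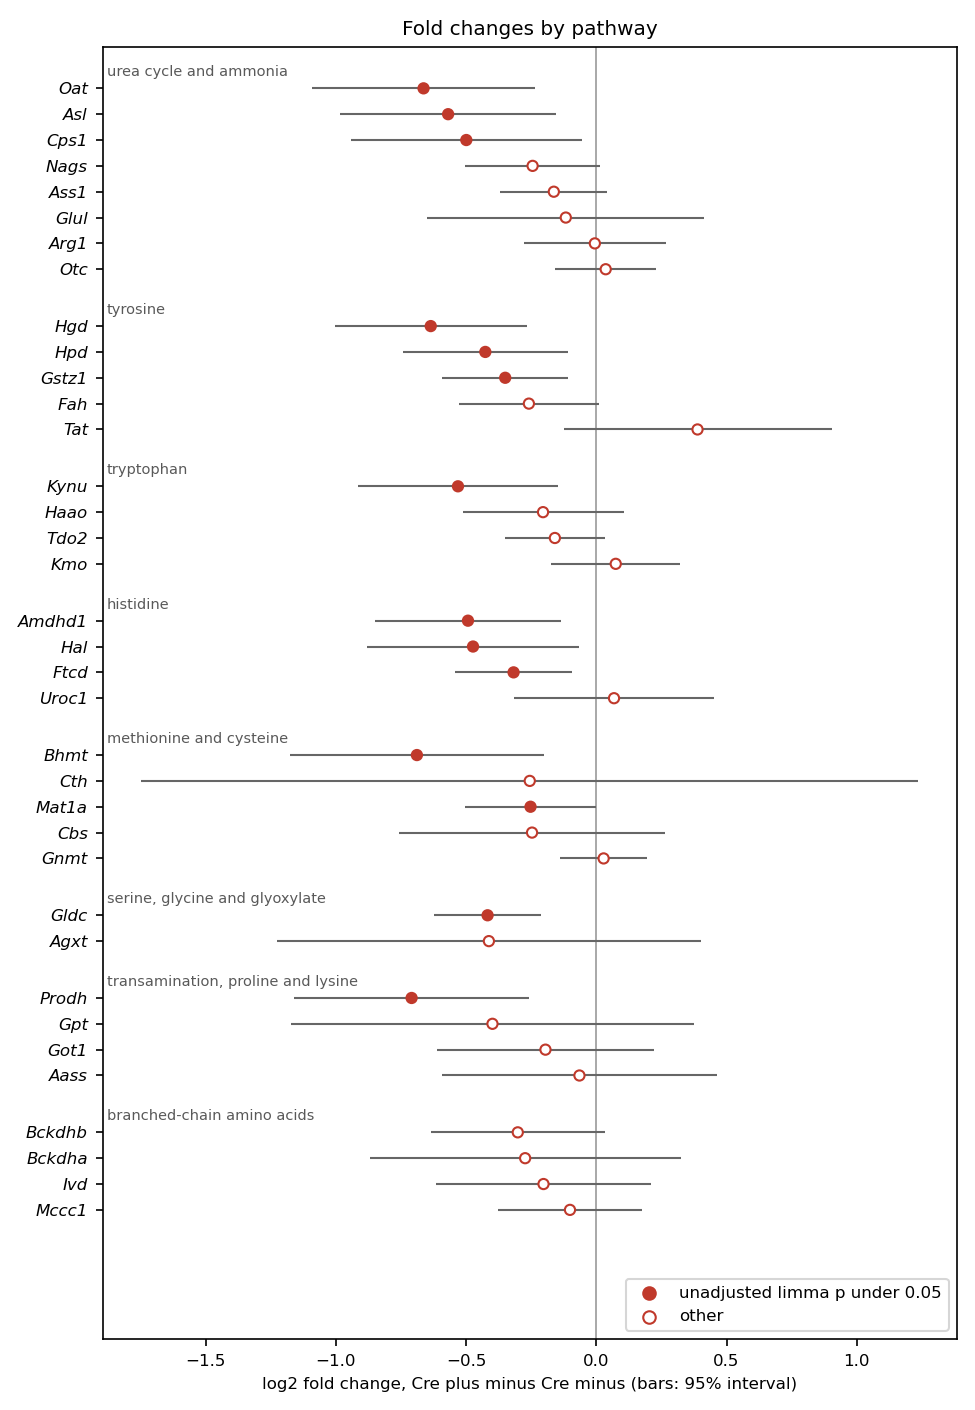
Log2 fold change of each of the 36 genes, Cre plus minus Cre minus (points), with 95% intervals from limma (bars, 3 arrays per group), by pathway. Filled points, all 14 of them left of 0, mark genes with an unadjusted p under 0.05, and none of the 36 passed after adjustment over 8554 genes.

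**Figure D2:**
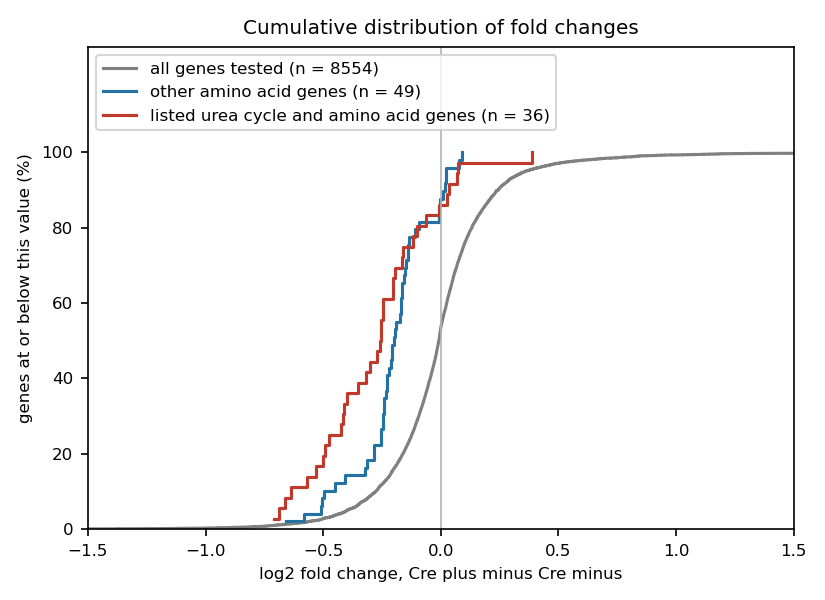
Share of genes (vertical axis, percent) at or below each log2 fold change (horizontal axis, Cre plus minus Cre minus), for all 8554 genes tested, 49 other genes of amino acid catabolism and the 36 listed genes. Over most of their range both amino acid curves lie left of the curve of all genes, with medians of -0.26 for the 36 and -0.20 for the 49. The horizontal axis leaves out all-gene values beyond 1.5 in size.

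To show the regulatory sequence beside the values, the 250 bases before the annotated start are given for 6 genes. Gldc, Hgd, Prodh and Oat had the smallest p of the 36, Hal held matches to more than 1 motif, and Tat had the largest higher value. The sequences are RefSeq's on build GRCm38.p6, written 5′ to 3′ on the gene's own strand, and capitals mark motif matches.
Gldc, chr19:30175442-30175691, minus strand: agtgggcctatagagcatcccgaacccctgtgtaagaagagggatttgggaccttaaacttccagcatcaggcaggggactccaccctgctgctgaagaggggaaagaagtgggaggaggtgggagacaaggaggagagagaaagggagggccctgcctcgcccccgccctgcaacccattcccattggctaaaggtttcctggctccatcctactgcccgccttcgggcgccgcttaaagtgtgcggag
Hgd, chr16:37579903-37580152, plus strand: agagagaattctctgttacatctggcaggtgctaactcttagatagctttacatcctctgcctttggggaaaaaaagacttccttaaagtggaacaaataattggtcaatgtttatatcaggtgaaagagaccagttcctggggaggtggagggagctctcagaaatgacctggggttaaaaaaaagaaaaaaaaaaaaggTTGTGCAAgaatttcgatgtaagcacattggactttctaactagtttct
Prodh, chr16:18089191-18089440, minus strand: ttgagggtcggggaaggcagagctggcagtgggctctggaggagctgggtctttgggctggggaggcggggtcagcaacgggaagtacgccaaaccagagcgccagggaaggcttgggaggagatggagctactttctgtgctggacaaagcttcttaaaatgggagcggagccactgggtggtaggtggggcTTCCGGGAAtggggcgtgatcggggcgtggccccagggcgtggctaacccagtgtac
Oat, chr7:132576399-132576648, minus strand: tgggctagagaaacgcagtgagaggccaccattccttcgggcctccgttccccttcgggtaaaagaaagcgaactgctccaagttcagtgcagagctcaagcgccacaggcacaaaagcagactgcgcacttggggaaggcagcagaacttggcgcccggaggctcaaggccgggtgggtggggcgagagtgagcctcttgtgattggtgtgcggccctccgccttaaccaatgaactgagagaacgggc
Hal, chr10:93488518-93488767, plus strand: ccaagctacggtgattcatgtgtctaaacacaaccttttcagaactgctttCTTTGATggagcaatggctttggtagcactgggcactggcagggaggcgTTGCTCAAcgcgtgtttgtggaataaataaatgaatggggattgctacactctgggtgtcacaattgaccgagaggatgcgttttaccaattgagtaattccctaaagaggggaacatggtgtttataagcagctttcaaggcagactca
Tat, chr8:109990186-109990435, plus strand: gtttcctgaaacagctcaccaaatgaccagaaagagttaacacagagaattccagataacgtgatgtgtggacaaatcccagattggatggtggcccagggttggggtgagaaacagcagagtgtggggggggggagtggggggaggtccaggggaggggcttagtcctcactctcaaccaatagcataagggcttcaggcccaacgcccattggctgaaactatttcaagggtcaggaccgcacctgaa

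Windows of 250 bases before to 50 after the start were at hand for 30 of the 39 genes, Amt among them, 32 windows in all. They were searched on both strands for TTCNNNGAA (bound by STAT proteins), TTGCNNAA (C/EBP), TGACGTCA (the cyclic AMP response element), CAAAGTCCA (HNF4) and CTTTGAT (TCF/LEF, the factors of Wnt signalling). The STAT letters were in 2 of the 32 windows, those of Prodh and Ivd, and in 8.30% of all 32851 windows. The C/EBP letters were in 3 windows (Aass, Hal and Hgd) and in 10.8% of all. TCF/LEF letters were also in 3 (Haao, Hal and Nags), against 3.73% of all. The cyclic AMP response element and the HNF4 letters were in 0 of the 32, and in 1.79% and 0.475% of all. The median GC content was 55.7% in the 32 windows and 52.7% in all. No 2 matches overlapped in the listed genes' windows. A match is a string of letters in the window and says nothing of binding.

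Among the genes of the urea cycle and ammonia handling, Cps1, Asl and Oat had the lowest fold changes, and those of Otc and Arg1 lay near 0. Of 8 genes, 7 were lower and 1 higher, with 3 lower at an unadjusted p under 0.05. Beside these and the pathway counts below stand the shares over all genes tested, 53.5% lower in mean and 8.21% lower at that p. Cps1, which joins ammonia and bicarbonate in mitochondria as the first committed step, had log2 values of 12.76, 12.86 and 12.56 in Cre minus, arrays being given in the order of their letters throughout, and of 11.99, 12.09 and 12.61 in Cre plus. Cre plus A and B lay below every Cre minus array, and Cre plus C lay among them. Its log2 fold change was -0.50 ± 0.18 (SE), a 1.41-fold lower signal (limma's adjusted p = 0.293). Nags makes the activator that Cps1 needs, and had -0.24 ± 0.11 with overlapping groups (-0.16 without Cre minus A).

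Asl, which splits argininosuccinate into arginine and fumarate, had 12.03, 12.13 and 11.76 in Cre minus and 11.49, 11.09 and 11.63 in Cre plus. Every Cre plus array lay below every Cre minus array, and Cre plus B was the lowest. The log2 fold change was -0.57 ± 0.17, a 1.48-fold lower signal (adjusted p = 0.239). Ass1, which makes argininosuccinate, had -0.16 ± 0.08 on its dim probe set, at a mean of 5.08 in Cre minus.

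Arg1, the arginase that releases urea, had 14.22, 14.34 and 14.18 in Cre minus and 14.38, 14.02 and 14.32 in Cre plus. These values lie near the top of the array's scale. Cre plus A lay above and Cre plus B below every Cre minus array, with a log2 fold change of -0.01 (95% interval -0.28 to 0.27). Otc, which makes citrulline, likewise overlapped at 0.04 (95% interval -0.16 to 0.23), and its 2 kept probe sets had opposite signs, 0.04 and -0.07. The interval of Arg1 still holds a difference as large as that of Nags, and differences between genes of the cycle were not tested.

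The 2 pericentral genes of this group were Oat and Glul. Oat, the aminotransferase that turns ornithine towards glutamate, had 12.52, 12.54 and 12.18 in Cre minus and 11.42, 11.89 and 11.94 in Cre plus. All Cre plus arrays lay lower, with Cre plus A the lowest, and the log2 fold change was -0.66 ± 0.17, a 1.58-fold lower signal (adjusted p = 0.201). Glul, the glutamine synthetase, had 11.02, 10.95 and 10.77 in Cre minus and 10.40, 10.74 and 11.25 in Cre plus. Cre plus A lay below and Cre plus C above all Cre minus arrays, and the mean difference of -0.12 ± 0.22 stands beside a spread in both directions, and it was 0.08 without Cre plus A.

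In tyrosine breakdown the first enzyme had higher values and the 4 that follow it had lower values. Tat, the aminotransferase that opens the pathway and is known to be induced by glucocorticoids and glucagon, had 12.18, 12.51 and 12.31 in Cre minus and 12.86, 12.27 and 13.03 in Cre plus. Cre plus A and C lay above every Cre minus array while Cre plus B lay among them. The log2 fold change was 0.39 ± 0.21 (adjusted p = 0.446). It was 0.61 without Cre plus B (adjusted p = 0.110) and 0.24 without Cre plus C (adjusted p = 0.652).

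The next enzyme, Hpd, which makes homogentisate, had 13.78, 13.64 and 13.44 in Cre minus and 12.99, 13.24 and 13.36 in Cre plus. Its groups did not overlap, and the log2 fold change was -0.43 ± 0.13 (adjusted p = 0.241). Hgd opens the ring of homogentisate, and had 11.67, 11.44 and 11.44 against 10.58, 11.08 and 10.99. All Cre plus arrays lay lower, Cre plus A the lowest, and the log2 fold change was -0.64 ± 0.15, a 1.55-fold lower signal (adjusted p = 0.187).

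Gstz1, the isomerase of the following step, had 11.61, 11.53 and 11.44 in Cre minus and 11.08, 11.36 and 11.09 in Cre plus. Those groups did not overlap either, with Cre plus B nearest to Cre minus, and the log2 fold change was -0.35 ± 0.10 (adjusted p = 0.220). Fah, which ends the pathway and is deficient in a form of hereditary tyrosinaemia, had -0.26 ± 0.11 (-0.16 without Cre plus A). Its Cre plus arrays too lay below all Cre minus arrays.

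Set against the Cre minus mean in the same array, Tat was higher by 0.53 and the later 4 enzymes lower by a mean of 0.62 in Cre plus A. In Cre plus C the values were 0.69 for Tat and -0.36 for the others. Cre plus B had -0.06 for Tat and -0.28 for the others, the smallest separation of the 3. This pair of measures was chosen after the values were seen and was not tested.

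**Figure D3:**
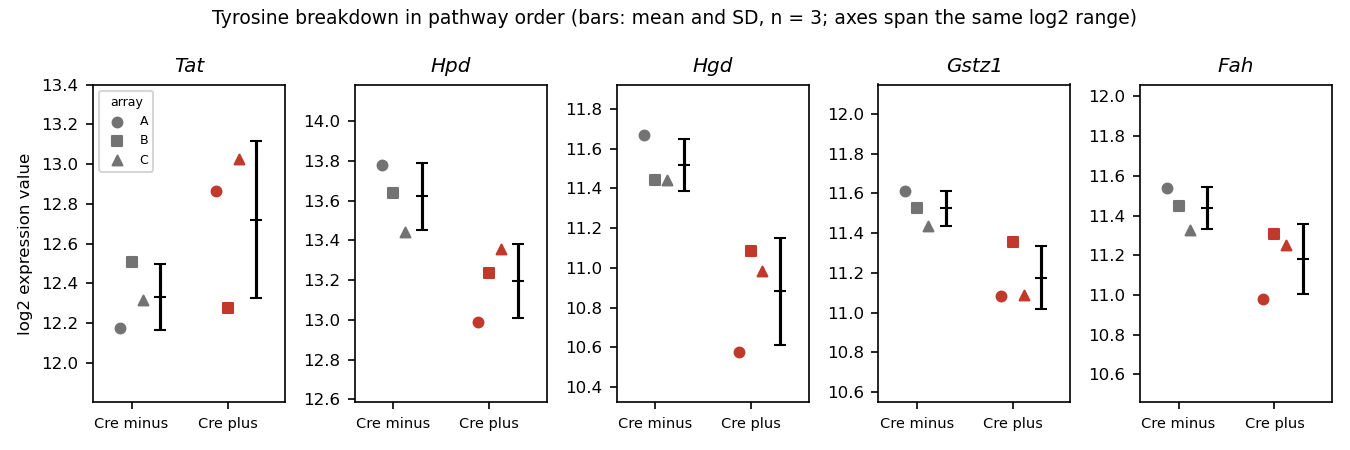
Log2 expression values of the 5 genes of tyrosine breakdown in pathway order, in Cre minus (grey) and Cre plus (red) arrays (circle A, square B, triangle C). Bars beside the points give mean and SD (n = 3), and every vertical axis spans the same log2 range. Tat is higher in Cre plus A and C, and Hpd, Hgd, Gstz1 and Fah are lower in every Cre plus array than in any Cre minus array.

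For tryptophan, 3 of 4 genes were lower, with 1 at an unadjusted p under 0.05. That gene was Kynu, the kynureninase that yields hydroxyanthranilate and alanine, with 9.50, 9.41 and 9.41 in Cre minus and 8.70, 9.26 and 8.77 in Cre plus. All Cre plus arrays lay lower and Cre plus B lay nearest to Cre minus, at a log2 fold change of -0.53 ± 0.16 (adjusted p = 0.238). Tdo2, the dioxygenase that commits tryptophan to this route, had -0.16 ± 0.08 on its brightest probe set and -0.36 ± 0.10 and -0.38 ± 0.09 on the dimmer 2, with non-overlapping groups on all 3. The brightest did not reach an unadjusted p under 0.05, and was at -0.09 without Cre plus B, while both dimmer ones did. Haao, which opens the ring of hydroxyanthranilate, had -0.20 ± 0.13 (-0.08 without Cre plus A). Kmo, the hydroxylase that precedes Kynu, had 0.07 ± 0.10, and 0.01 to 0.17 with 1 array left out.

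In histidine breakdown, Hal, Amdhd1 and Ftcd, 3 of 4 genes, had lower values at an unadjusted p under 0.05. Hal, the ammonia lyase that starts it and a periportal gene, had 10.41, 10.43 and 10.38 in Cre minus and 9.78, 10.32 and 9.70 in Cre plus. Cre minus arrays agreed closely (SD 0.03), Cre plus A and C lay far below and Cre plus B just below. The log2 fold change was -0.47 ± 0.17 (adjusted p = 0.286).

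Amdhd1, the imidazolonepropionase that opens the imidazole ring, had the same arrangement, with 9.93, 10.00 and 9.98 against 9.23, 9.79 and 9.41. Its log2 fold change was -0.49 ± 0.15 (adjusted p = 0.238), and its dimmer probe set gave -0.58. Ftcd, which passes the formimino group to folate, had 11.99, 11.84 and 11.75 in Cre minus and 11.66, 11.44 and 11.53 in Cre plus. Here Cre plus A was the highest of the Cre plus arrays, the groups did not overlap and the log2 fold change was -0.32 ± 0.09 (adjusted p = 0.235). Uroc1, the urocanase between Hal and Amdhd1, had 0.07 ± 0.16 with overlapping groups.

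Among genes of methionine and cysteine, 4 of 5 were lower and 2 of these at an unadjusted p under 0.05. Bhmt, which remakes methionine from homocysteine with betaine, had 14.67, 14.59 and 14.41 in Cre minus and 13.43, 14.03 and 14.14 in Cre plus. Every Cre plus array lay lower, Cre plus A by the most, and the log2 fold change was -0.69 ± 0.20, a 1.61-fold lower signal (adjusted p = 0.230). Its signal lies near the top of the array's scale, where 58 genes tested had a mean over 14 and a median log2 fold change of 0.02.

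Mat1a makes S-adenosylmethionine in the adult liver, and had 14.58, 14.53 and 14.38 in Cre minus and 14.40, 14.08 and 14.24 in Cre plus. These values too lie near the top of the array's scale. Cre plus A overlapped with Cre minus C, and the log2 fold change was -0.25 ± 0.10 (adjusted p = 0.334). Gnmt, which uses up S-adenosylmethionine, had 0.03 ± 0.07 with a 95% interval of -0.14 to 0.20.

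In transsulfuration, Cth varied widely among Cre plus arrays. Cth, which releases cysteine from cystathionine, had 11.44, 10.76 and 10.70 in Cre minus and 9.73, 10.36 and 12.05 in Cre plus. Cre plus A and B lay below all Cre minus arrays and Cre plus C above all of them, and the SD of 1.2 in Cre plus was the largest of the 36 genes. Its mean difference of -0.26 ± 0.61 was 0.24 when Cre plus A was left out and -0.93 when Cre plus C was. Cbs, which makes cystathionine, had the other arrangement, with Cre plus A and C lower and Cre plus B higher than Cre minus, at -0.25 ± 0.21 (-0.13 when either Cre plus A or Cre plus C was left out, and -0.48 when Cre plus B was).

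Gldc had the smallest p of the 36 genes. It encodes the decarboxylase of the glycine cleavage system, a periportal enzyme, and had 10.53, 10.54 and 10.39 in Cre minus and 10.11, 10.16 and 9.94 in Cre plus. The groups did not overlap and the arrays of each group lay close together (SD 0.08 and 0.12). The log2 fold change was -0.42 ± 0.08, a 1.34-fold lower signal (adjusted p = 0.146). Agxt, which disposes of glyoxylate in peroxisomes, had -0.41 ± 0.33, with values of 8.64, 9.59 and 9.94 in Cre plus and 9.97, 9.81 and 9.64 in Cre minus. Its difference was -0.04 when array A of Cre plus was left out and -0.69 when array C was.

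Prodh, which starts the breakdown of proline in mitochondria, had the largest mean difference of the 36 genes. Its values were 7.33, 7.01 and 6.90 in Cre minus and 6.14, 6.27 and 6.71 in Cre plus. All Cre plus arrays lay lower, with a log2 fold change of -0.71 ± 0.18, a 1.64-fold lower signal (adjusted p = 0.200). The aminotransferases Gpt (-0.40 ± 0.31) and Got1 (-0.20 ± 0.17) had overlapping groups, as did Aass, the first enzyme of lysine breakdown, at -0.06 ± 0.22. With 1 array left out, Gpt ranged from -0.73 (without Cre plus C) to -0.16 (without Cre plus B), and Got1 from -0.34 (without Cre minus C) to -0.05 (without Cre minus A).

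The 4 genes of branched-chain amino acid breakdown were all lower in mean, 0 of them at an unadjusted p under 0.05. Bckdhb, a subunit of the dehydrogenase that commits the keto acids, had 10.14, 9.67 and 9.71 in Cre minus and 9.47, 9.56 and 9.58 in Cre plus. The groups did not overlap, with Cre minus A well above the rest, and the log2 fold change was -0.30 ± 0.14 (adjusted p = 0.372). The other subunit, Bckdha, had -0.27 ± 0.24. Of the leucine enzymes, Ivd had -0.20 ± 0.17 on its brighter probe set and -0.41 on its dimmer one, and Mccc1 -0.10 ± 0.11, with overlapping groups. Without Cre minus A the values were -0.15 for Bckdhb, -0.12 for Bckdha, -0.07 for Ivd and 0.0083 for Mccc1. Ivd was at -0.06 and Bckdha at -0.15 without Cre plus A, and Bckdha was at -0.52 when array B of Cre plus was left out and at -0.15 when array C was.

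The Cre plus arrays shared the lower values unequally. The median change from the Cre minus mean over the 36 genes was -0.46 for array A of Cre plus, -0.22 for array B and -0.16 for array C, where all genes tested had -0.0048, -0.0050 and -0.03. In Cre plus A, 28 of 36 genes lay below all 3 Cre minus arrays, against 34.8% of all genes. The number was 26 in Cre plus B, against 29.4%, and 20 in Cre plus C, against 38.5%. Above all Cre minus arrays lay 3, 4 and 6 genes in that order, against 32.2%, 27.6% and 26.9% of all genes.

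By gene, 23 of the 36 (63.9%) were below the Cre minus mean in all 3 Cre plus arrays, against 29.3% of all genes tested. Another 6 (Glul, Gnmt, Cth, Gpt, Aass and Agxt) were below it in arrays A and B and above it in array C. The reverse, below in A and C and above in B, held for 3 (Otc, Cbs and Bckdha). Uroc1 was below it in A alone, Arg1 and Tat in B alone and Kmo in C alone. The SD was larger in Cre plus than in Cre minus for 30 of the 36 genes (83.3%), beside 63.1% of all genes tested.

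**Figure D4:**
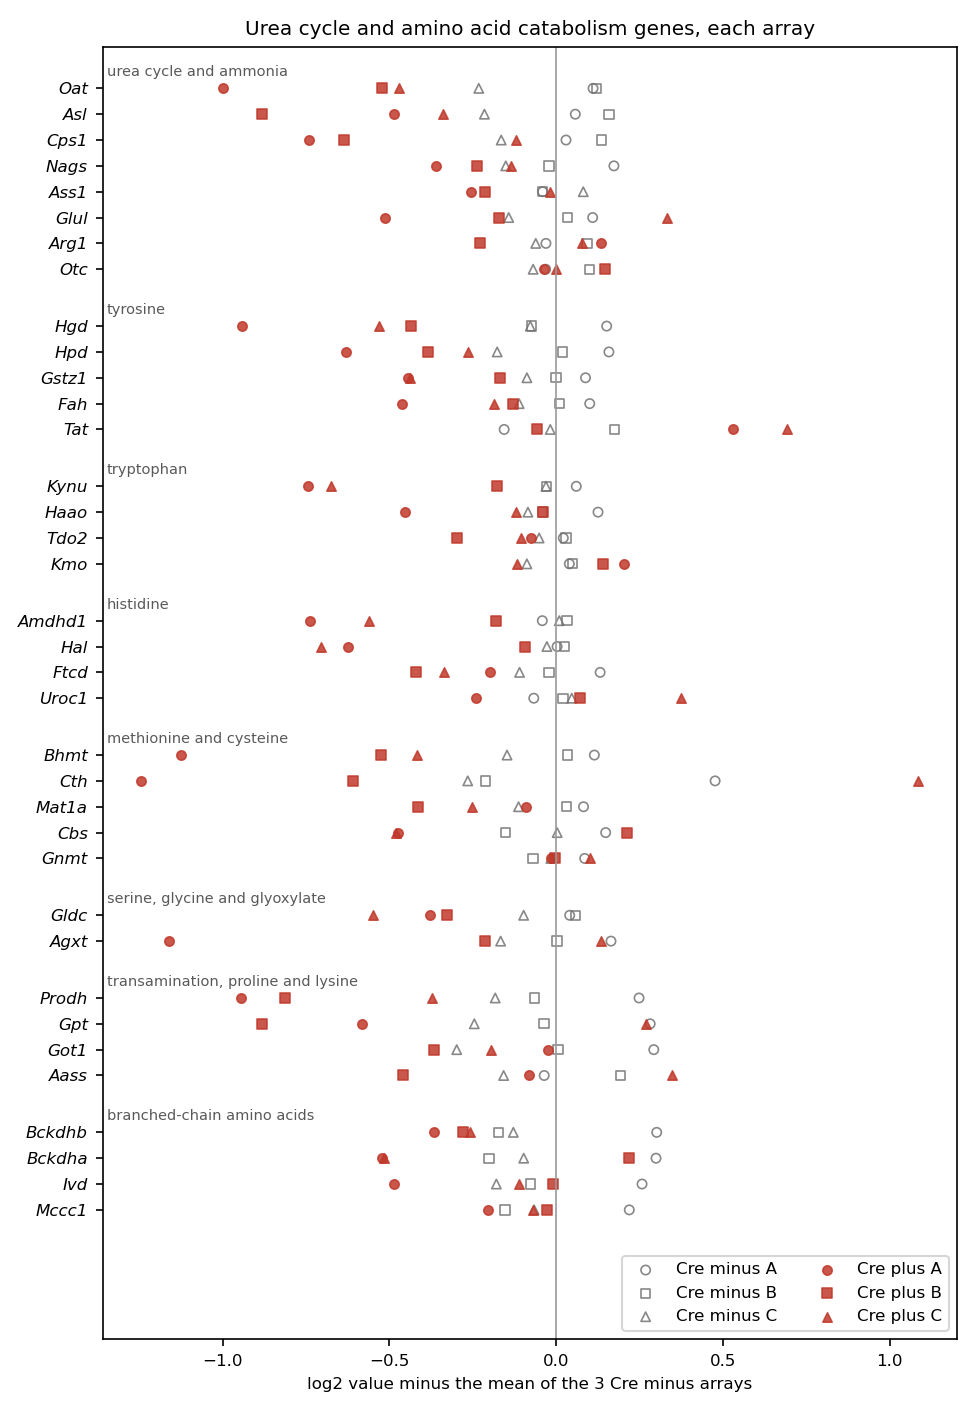
Log2 value of each of the 36 genes in each array minus the mean of the 3 Cre minus arrays (horizontal axis), by pathway, with Cre minus arrays open and Cre plus arrays filled (circle A, square B, triangle C). Most filled points lie left of 0. Cth spans from -1.24 in Cre plus A to 1.08 in Cre plus C, and Tat is the gene with filled points farthest right after it.

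By zone of the liver lobule, of 9 periportal genes tested, 7 were lower and 2 (Otc and Uroc1) higher, with a median log2 fold change of -0.24. At an unadjusted p under 0.05, 4 were lower. Over all genes tested, 53.5% were lower in mean and 8.21% were lower at that p. The pericentral genes were Oat and Glul, described above. The 25 genes given no zone had a median of -0.26, with 22 lower. The zones were not tested against each other.

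Zonal genes of other functions were read in the same way, beside the same shares of 53.5% and 8.21% over all genes tested. Slc7a2, an amino acid transporter, is in the periportal list and also in the list of other amino acid genes given next, and was counted in both. Of 10 periportal ones tested, 9 were lower and 4 of these at an unadjusted p under 0.05, with a median of -0.27. The 4 were Hsd17b13, a lipid droplet protein (-0.61 ± 0.08, adjusted p = 0.0785), G6pc, which releases free glucose (-0.51 ± 0.15), the cytochrome P450 Cyp2f2 (-0.52 ± 0.16) and E-cadherin, Cdh1 (-0.24 ± 0.08). Of 11 pericentral ones, 8 were lower and 1 at an unadjusted p under 0.05, with a median of -0.06. That one was the glutamate transporter Slc1a2, at -0.95 ± 0.26 and a mean of 6.24 in Cre minus. The pericentral Cyp1a2 had 0.26 ± 0.11, Lgr5 -0.25 ± 0.14 and Tbx3 -0.42 ± 0.24. The pericentral count of 1 in 11 lies near the share over all genes. The periportal and pericentral lists were not tested against each other.

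Other genes of amino acid catabolism, outside the list, were mostly lower too. Of 56 other enzymes and transporters, 49 were tested, and 0 passed over all genes. Of the 49, 43 (87.8%) were lower and 6 higher, where 53.5% of all genes tested were lower. At an unadjusted p under 0.05, 11 were lower, against 8.21% of all genes tested, and 0 were higher, against 6.62%. The count of 11 became 7 with Cre minus A left out, where the share over all genes was 4.52%. It became 20 with Cre plus B left out, where that share was 10.0%. The smallest p values belonged to Shmt2, the mitochondrial serine hydroxymethyltransferase (-0.50 ± 0.09, adjusted p = 0.120), and Cdo1, the cysteine dioxygenase (-0.58 ± 0.12, adjusted p = 0.146). Aadat, an aminotransferase of lysine and kynurenine, had -0.31 ± 0.07, and Hibch, of valine breakdown, -0.45 ± 0.10.

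Regulators of amino acid breakdown had values in both directions. Of 9 tested, 4 were lower and 5 higher, with a median of 0.11. In 4 of the 9 every Cre plus value lay above every Cre minus value, against 9.21% of all genes tested. In 1, Klf15, every Cre plus value lay below, against 11.9%. Cebpb, a C/EBP factor induced by cytokines and hormones, had 0.51 ± 0.07 (adjusted p = 0.0785). Klf15, a factor known to drive amino acid breakdown in fasting, had 9.28, 9.37 and 9.21 in Cre minus and 8.70, 9.12 and 8.88 in Cre plus, with no overlap, at -0.39 ± 0.12 (adjusted p = 0.240). Gcgr, the glucagon receptor, had -0.36 ± 0.14 (adjusted p = 0.319), and the homeobox factor Prox1 had 0.23 ± 0.09. Hnf4a, a main factor of hepatocyte identity, had 0.11 ± 0.06.

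Markers of cell types were measured in the same arrays. Of 6 hepatocyte markers tested, among them Apoa1 (-0.16 ± 0.07), Fgb, Ttr and Cyp2e1, 4 were lower and 2 higher. Their median log2 fold change was -0.05, and their summed linear signal was 209403 to 217840 in Cre minus and 202638 to 214558 in Cre plus. Their median level was 15.2, near the top of the array's scale, and the hepatocyte share of the tissue was not tested. All 8 macrophage and Kupffer cell markers were lower, with a median of -0.35 and sums of 3982 to 4361 against 2944 to 3630. Of 8 sinusoidal endothelial markers 7 were lower, with a median of -0.20 and sums of 2415 to 2799 against 1942 to 2416. The 7 ranged from -0.54 to -0.02, and the other, Lyve1, had 0.91 ± 0.56. Stellate cell markers were lower in 4 of 8. The neutrophil genes S100a8 and S100a9 were highest in Cre plus A, at 10.10 and 9.21 against at most 8.54 and 7.90 in every other array. The bile duct gene Sox9 had a log2 fold change of 0.38 ± 0.23, and was at 6.70 in Cre plus A against at most 5.96 in every other array. None of 4 lymphocyte and 4 pancreatic acinar markers passed the filter, nor did the other bile duct markers Krt7, Krt19, Epcam and Cftr. The part of these cell types in the lower amino acid genes was not tested.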

How the data were processed

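Gene expression was measured on 6 arrays of whole liver RNA, 3 Cre plus and 3 Cre minus. The values the authors deposited are log2 expression values, judged from their range, and were made with GCRMA, per the submitters' processing notes. GCRMA corrects background by probe sequence and normalizes arrays to one another, and low values are compressed. Its version is not given in the sources consulted. Arrays have no read depth, and their number limits the precision.

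Gene symbols came from the platform annotation, and were checked by Entrez ID against RefSeq (GRCm38.p6), which changed 0 of them. Of 45101 probe sets, 34958 had 1 symbol, 932 several and 9211 none, and only the first kind was used. Probe sets over a log2 value of 4 in at least 3 arrays were kept (15563), and the brightest per gene was tested (8554 genes). Groups were compared with limma 3.58.1 in R 4.3.3 (lmFit and eBayes, no block, two-sided), with Benjamini-Hochberg adjustment over all genes. The fit was tested on simulated data. Errors are limma's standard errors.

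Members and lists were chosen with earlier results of these data known, so the counts are descriptions. Values per array are given for genes at an unadjusted p under 0.05, or with non-overlapping groups and a log2 fold change over 0.3 in size, and for Cps1, Arg1, Glul, Oat, Tat and Hal. Up to 4 genes per other list are named by smallest p. Hnf4a, Lyve1 and the per-array values of Agxt, Cth, Klf15, Sox9 and the neutrophil genes were added after their values were seen. An exact permutation test of 3 arrays against 3 cannot give a p under 0.1, so it was not used for calls.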

Additional observations from a re-analysis of the deposited data

How the results depend on the processing

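The count of genes past an adjusted p was 0 under all 15 alternatives, which were other normalizations, filters, priors and probe set choices, array weights, a replicate block and each array left out. The lowest adjusted p of any of the 36 genes was 0.0666, without Cre plus B. The count of lower genes at an unadjusted p under 0.05 was 12 to 16 under the alternatives that kept all arrays and no block. The share of all genes tested went there from 4.03% with no filter to 10.2% with a cut-off of 6 for dim probe sets. With a replicate block on the letters the count was 11, against 7.14% of all genes. Deviations of same-lettered arrays correlated at -0.15, -0.10 and 0.02 for A, B and C, so no likeness by letter was seen. With so few arrays per group, these values cannot decide whether the letters pair the arrays. With 1 array left out the count was 9 to 16, lowest without Cre minus A. The share of all genes went from 4.52% without Cre minus A to 10.0% without Cre plus B. The counts thus stand against different shares. With 1 array left out the count of higher genes was 0 to 1, and that of genes with every Cre plus value above every Cre minus value 0 to 1. The cause was not tested.

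The direction held under every alternative for 28 of 36 genes. Leaving out 1 array moved the value of 21 genes by over 1.5 times, 0 of them among the 14 lower at an unadjusted p under 0.05. Those 14 were picked on the same arrays for differences large against the spread. Their steadiness follows largely from that choice and is no separate support. Arg1 turned to 0.0031 with arrays shifted to a common median and 0.017 with array weights, and Otc to -0.018 with the mean of all kept probe sets. With 1 array left out, Arg1 ranged from -0.076 to 0.11, Otc from -0.019 to 0.086, Mccc1 from -0.18 to 0.0083, Gnmt from -0.0092 to 0.071, Aass from -0.27 to 0.13, Glul from -0.34 to 0.080, Cth from -0.93 to 0.24 and Uroc1 from -0.085 to 0.22. Uroc1 and Gpt gave no value without probe sets whose names end in _x_at or _s_at. Ass1 gave none once probe sets had to exceed a log2 value of 6. Over all genes, 2 passed the adjusted p, 56 with that stricter filter, 13 without Cre plus B, and 0 with no filter, with the replicate block or without any 1 Cre minus array.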
